A study of Homo sapiens with 32 samples.

Results

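The genes described here encode the machinery of major histocompatibility complex (MHC) class I antigen presentation. The 9 members, HLA-B, HLA-C, HLA-E, HLA-F, B2M, TAP1, TAP2, TAPBP and NLRC5, were chosen by gene symbol from the 58317 genes of the authors' deposited table of comparisons, and all 9 had a value in each of its 7 comparisons. RNA was sequenced from 32 libraries of TET21, a human cell line made from the neuroblastoma line SH-EP, with an added MYCN gene that doxycycline switches off. They form 8 groups of 4: an empty vector control (EV), full-length MYC (WT), and 6 deletion mutants of MYC whose labels carry d0x, d1, d2, d3a, d3b or d4. Which residues are deleted is not stated there. From the names alone they were read as deletions of the conserved MYC boxes: d0x is written here as ΔMB0, d1 as ΔMBI, d2 as ΔMBII, d3a as ΔMBIIIa, d3b as ΔMBIIIb and d4 as ΔMBIV. The labels give every group, EV included, 1 µg/mL doxycycline for 7 days, under a protocol worded for the cells that express WT MYC. The promoter that drives the introduced MYC, and whether a group is 1 clone or a pool, are not given in the sources used here.

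MHC class I molecules are surface complexes of a polymorphic heavy chain, the light chain B2M and a short peptide, and they show samples of a cell's own proteins to CD8+ T cells and natural killer cells. Peptides made by the proteasome are pumped into the endoplasmic reticulum by a transporter of TAP1 and TAP2, and tapasin, the product of TAPBP, holds empty heavy chains next to that transporter until a peptide is bound. NLRC5 is the transactivator that drives class I heavy chain, B2M and TAP1 promoters, and interferons and NF-kB raise the same genes. Neuroblastoma is known as a tumour with little class I on its surface, and high MYCN has been linked to that state.

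All values below are the authors' own. A log2 fold is the log2 posterior fold change between 2 groups of 4 libraries, and the PPDE is the posterior probability that a gene is differentially expressed. A gene is called, and said to have risen or fallen, at a PPDE of at least 0.95, which the file header equates with a false discovery rate below 0.05. Values and depths per library were not used here, so single folds carry no SD. The labels do not say whether replicates are separate cultures, so calls may measure technical spread only. They number the replicates 4 to 7 in every group and do not say whether equal numbers mark matched sets. In bulk RNA, fewer cells that carry a transcript and less of it in each cell cannot be told apart. MYC itself stood at 0.98 with a PPDE of 0.348 when WT was compared with EV in the authors' deposited table, and between -0.09 and 0.68 in the mutants against WT, with no call. Of 10 immune cell markers, whose cells hold much class I, 8 had a value in WT against EV and none was called there (CD3E and MS4A1 had none), and their folds ran from -1.44 to 1.24 in the authors' deposited table. Of the 6 adrenergic neuroblastoma markers, TH had no value in any comparison, which by the file header marks a gene without reads. Mesenchymal neuroblastoma cells are known to hold more class I than adrenergic ones. Of 6 mesenchymal markers 3 fell in WT against EV and none rose, beside 2.94% of all tested genes fallen. FN1 fell to -2.51, SNAI2 to -1.35 and NOTCH2 to -0.51 in the authors' deposited table. VIM at -0.58, YAP1 at -0.29 and PRRX1 at 0.05 were not called in the authors' deposited table. Of the 5 adrenergic markers with a value in WT against EV, HAND2 rose by 0.48 and no other was called. Their part in the class I values was not tested. The tables hold no expression levels, so the cell type could not be checked further.

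Promoter sequence is shown for 5 members as a description, and no link between these sequences and the folds was tested. TAP2 is the one called member, its partner TAP1, B2M and TAPBP hold the interferon element described next, and HLA-B is the heavy chain shown. RefSeq windows of 300 bases around a transcript start, on GRCh38.p14, were matched for HLA-B, HLA-C, HLA-F, B2M, TAP1, TAP2 and TAPBP, 8 windows for 7 members. Each line gives the 200 bases before the start, 5′ to 3′ on the strand of the gene. Capitals mark the core of the interferon-stimulated response element (GAAA, any 2 bases, GAAA), the NF-kB consensus and the CCAAT box (CCAAT), searched on both strands, with overlapping matches joined.
TAP2, chr6:32838740-32838939, minus strand: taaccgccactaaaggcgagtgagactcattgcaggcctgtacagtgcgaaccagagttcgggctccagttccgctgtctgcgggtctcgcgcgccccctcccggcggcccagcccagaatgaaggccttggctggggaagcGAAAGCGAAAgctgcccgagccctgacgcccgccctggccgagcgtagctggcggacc
TAP1, chr6:32853705-32853904, minus strand: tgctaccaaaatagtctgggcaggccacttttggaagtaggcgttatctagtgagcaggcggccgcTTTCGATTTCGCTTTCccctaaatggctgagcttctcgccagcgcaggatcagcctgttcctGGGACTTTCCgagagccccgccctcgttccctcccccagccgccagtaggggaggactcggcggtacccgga
B2M, chr15:44711317-44711516, plus strand: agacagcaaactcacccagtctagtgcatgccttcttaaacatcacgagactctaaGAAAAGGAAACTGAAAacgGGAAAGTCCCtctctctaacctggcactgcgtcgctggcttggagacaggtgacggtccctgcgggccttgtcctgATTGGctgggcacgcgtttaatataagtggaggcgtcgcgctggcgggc
TAPBP, chr6:33314079-33314278, minus strand: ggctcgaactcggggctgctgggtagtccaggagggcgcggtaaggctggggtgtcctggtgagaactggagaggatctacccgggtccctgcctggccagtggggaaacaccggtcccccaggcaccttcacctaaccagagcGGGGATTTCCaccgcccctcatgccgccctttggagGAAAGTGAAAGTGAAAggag
HLA-B, chr6:31357180-31357379, minus strand: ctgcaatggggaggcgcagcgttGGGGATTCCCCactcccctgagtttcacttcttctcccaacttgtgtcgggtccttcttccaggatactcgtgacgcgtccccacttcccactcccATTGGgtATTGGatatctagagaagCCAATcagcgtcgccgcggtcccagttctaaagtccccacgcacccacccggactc

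The interferon element core was found in the windows of 5 of the 7 members, TAP2, TAP1, B2M, TAPBP and HLA-F, against 3.57% of all 35116 windows in the RefSeq table. In TAP2 it begins 58 bases before the start, in TAPBP an overlapping pair begins 20 and 14 bases before it, and in B2M a pair begins 144 and 138 bases before it. The NF-kB consensus was found for HLA-B, HLA-C, TAP1, TAPBP and B2M, against 5.91% of all windows, and the TAP2 window held none. A CCAAT box lay in 5 of the 7, against 34.6% of all windows, and TAP2 and TAPBP had none. The canonical E-box CACGTG, the best-known MYC site, lay in none of the 8 windows and in 7.26% of all, and the cyclic AMP element TGACGTCA in none and in 1.85%. The gamma-activated site TTCNNNGAA lay in the second TAP1 window alone, against 7.66% of all. These are matches of letters in short windows and do not show binding. An exact pattern misses elements that differ from it, so the lack of an interferon match in HLA-B and HLA-C does not show that they have none.

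The authors' second deposited table lists genes with a MYC binding site, mapped in 1 experiment, and holds B2M, TAP2, TAPBP and NLRC5. That is 4 of the 9 members (44.4%), beside 24% of the genes tested in WT against EV. The other 5, HLA-B, HLA-C, HLA-E, HLA-F and TAP1, are not in it. How sites were assigned to genes is not given in the sources used here.

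The comparison of WT with EV addresses the effect of full-length MYC. None of the 9 members was called in the authors' deposited table, where 4.91% of 38218 tested genes were called. The members fell into 2 sets by value: 5 of them, HLA-C, HLA-E, HLA-F, B2M and TAPBP, stood between -0.62 and -0.48, while HLA-B, TAP1, NLRC5 and TAP2 stood between -0.18 and 0.29 in the same authors' deposited table. The median of the 9 was -0.48, and the median of all tested genes was -0.04. Of 2449 tested genes that lay 0.45 to 0.65 below 0, 210 (8.57%) were called in the authors' deposited table, beside 4.91% of all tested genes. That band was set by fold alone and was not matched to the members by expression level.

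Among the heavy chains, HLA-E, which shows leader peptides of other class I chains to natural killer cells, came closest to a call. Its log2 fold of -0.62, or 0.65 times the EV level, had a PPDE of 0.933 in the authors' deposited table. HLA-C, a classical chain that is also the main ligand of killer immunoglobulin-like receptors, stood at -0.55 with a PPDE of 0.167 there. HLA-F, a nonclassical chain, stood at -0.48 with a PPDE of 0.124 in the authors' deposited table. HLA-B, the most polymorphic of the classical chains, had the smallest heavy chain value, -0.18, with a PPDE of 0.00942. So the authors' deposited table put all 4 heavy chains below 0 and called none. JAK1, a kinase of interferon receptors, had a log2 fold of -0.55, close to that of HLA-C, and was called with a PPDE of 1.00 in the authors' deposited table, so that fold size alone did not set the call.

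B2M, the light chain shared by all class I molecules, stood at -0.49, or 0.71 times EV, with a PPDE of 0.555 in the authors' deposited table. TAPBP was next to HLA-C in size, at -0.57, but with a PPDE of 0.101. The transporter genes did not share that sign. TAP2 stood at 0.29 with a PPDE of 0.212, and TAP1 at 0.07 with a PPDE of 0.00516, the lowest of the 9 in the authors' deposited table. NLRC5 stood at 0.08 with a PPDE of 0.00737 in the authors' deposited table.

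**Figure D1:**
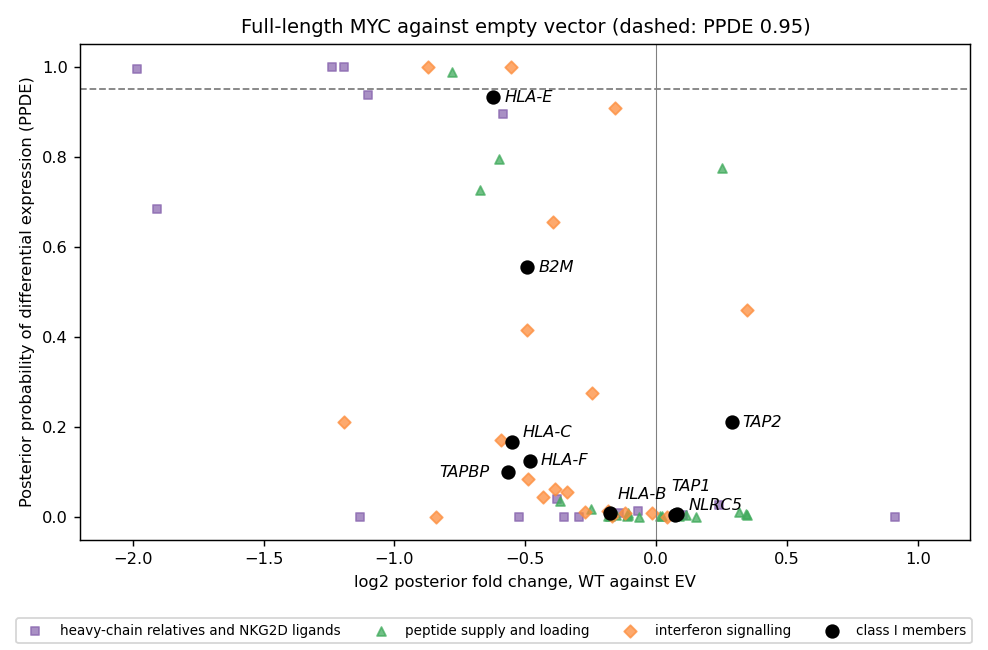
Log2 posterior fold change (x) against PPDE (y) in WT against EV for the 9 members (black, named) and for 3 related lists, from the authors' deposited table, with the call threshold of 0.95 dashed. HLA-E at 0.933 is the member nearest the line, and TAP1, NLRC5 and HLA-B lie at the bottom near a fold of 0.

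The comparison of ΔMBII with WT addresses what changes when MYC box II, the segment that recruits TRRAP and histone acetyltransferases, is missing. TAP2 fell, to a log2 fold of -0.55 or 0.69 times the WT level, with a PPDE of 0.968 in the authors' deposited table. It was the only call among the 9 members in any of the 7 comparisons, and 1.45% of 38113 tested genes were called in ΔMBII against WT, 0.758% as fallen. In the authors' deposited table TAP1, with which TAP2 forms the transporter, stood at -0.09 with a PPDE of 0.00166.

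The heavy chains lay on the other side of 0 in ΔMBII. The authors' deposited table put HLA-E at 0.50, HLA-F at 0.44, HLA-C at 0.43 and HLA-B at 0.14 against WT, with a highest PPDE of 0.0202, that of HLA-E. TAPBP stood at 0.40 and B2M at 0.38 in the authors' deposited table, with PPDE values of 0.00757 and 9.6e-04. NLRC5 was at -0.05. None of these 7 was called, and the median of the 9 members was 0.38 beside 0.04 over all tested genes. WT libraries enter this comparison and WT against EV alike, so the 2 sets of values are not independent. The mesenchymal markers also lay higher in ΔMBII than in WT: FN1 rose by 1.77 and SNAI2 by 1.36 in the authors' deposited table, both with a PPDE of 1.00. Of the 6 markers 5 lay above 0, with a median of 0.405, and the other 4 were not called. Among all tested genes 0.695% rose in ΔMBII against WT. Their part in the class I values of ΔMBII was not tested.

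The other 5 mutants had no called member, in comparisons where between 0.0419% and 1.11% of tested genes were called. In ΔMB0 against WT, where 0.559% of tested genes were called, the members ran from -0.24 (TAP2) to 0.40 (HLA-E), with a median of 0.19. HLA-F stood at 0.28 and HLA-C at 0.25 in the authors' deposited table, TAP1 at 0.20, TAPBP at 0.19, NLRC5 at 0.18, HLA-B at 0.15 and B2M at 0.14. HLA-E had the highest PPDE there, 0.109 in the authors' deposited table. In ΔMBIV against WT, with 1.11% of tested genes called, they ran from -0.10 (TAP2) to 0.30 (HLA-E), with a median of 0.12 and a highest PPDE of 0.00465. NLRC5 reached its own highest value there, 0.23 in the authors' deposited table. HLA-C stood at 0.19, HLA-B at 0.15, TAPBP at 0.12, HLA-F at 0.09, B2M at 0.02 and TAP1 at -0.02 in the authors' deposited table.

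ΔMBI, with 0.119% of tested genes called, put the members between -0.14 (TAP2) and 0.28 (HLA-B) in the authors' deposited table. B2M stood at 0.23 and HLA-F at 0.21 there, HLA-E at 0.13, HLA-C and TAP1 at 0.07, TAPBP at 0.06 and NLRC5 at -0.08. ΔMBIIIa, with 0.0419% called, ran from -0.27 (HLA-B) to 0.19 (HLA-E), with a member median of -0.0050. Its values for HLA-C and B2M were -0.00499 and 0.00467 in the authors' deposited table. TAPBP stood at 0.09, NLRC5 at 0.05, TAP1 at -0.02, HLA-F at -0.13 and TAP2 at -0.16. ΔMBIIIb, with 0.0955% called, ran from 0.02 (HLA-B) to 0.37 (HLA-F), so that all 9 members lay above 0 (7 of them once folds were centred on the median of all tested genes), as did the median of all tested genes at 0.06. HLA-E stood at 0.22 there, NLRC5 at 0.20, TAP1 at 0.18, B2M at 0.15, TAPBP at 0.11, HLA-C at 0.09 and TAP2 at 0.06 in the authors' deposited table. The highest member PPDE was 0.00129 in ΔMBI, 2.1e-04 in ΔMBIIIa and 0.00134 in ΔMBIIIb, so none of these 3 came near a call.

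Adding the WT against EV fold to a mutant's fold against WT gives, by arithmetic alone and with no PPDE, the position of that mutant against EV. For HLA-E the sums of the deposited folds lay nearest to 0 for ΔMBII at -0.12, followed by ΔMB0 at -0.23, ΔMBIV at -0.33, ΔMBIIIb at -0.40, ΔMBIIIa at -0.43 and ΔMBI at -0.49, beside -0.62 for WT itself. For B2M they were -0.11, -0.35, -0.47, -0.34, -0.49 and -0.27 in the same order, beside -0.49. Over the 9 members the median sum was -0.11 in ΔMBII, -0.16 in ΔMBIIIb, -0.21 in ΔMB0, -0.27 in ΔMBI, -0.33 in ΔMBIV and -0.45 in ΔMBIIIa. In ΔMBII 8 of the 9 sums lay below 0, and that of TAP2 was the lowest at -0.26. In ΔMBIV the sum of TAP2 was 0.19, and TAP1 at 0.05 and NLRC5 at 0.31 also lay above 0. The error of these sums is unknown.

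TAP2, the immunoproteasome subunit PSMB8, its antisense gene PSMB8-AS1, TAP1 and the subunit PSMB9 follow each other in that order on chromosome 6, per the RefSeq gene table. In ΔMBII against WT the authors' deposited table put TAP2 at -0.55, PSMB8 at -0.40, PSMB8-AS1 at 0.15, TAP1 at -0.09 and PSMB9 at 0.21. Only TAP2 was called. In WT against EV the same order read 0.29, 0.11, -0.03, 0.07 and -0.25 in the authors' deposited table, with no call. The value of TAP2 was thus the farthest from 0 of the 5 in both comparisons.

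**Figure D2:**
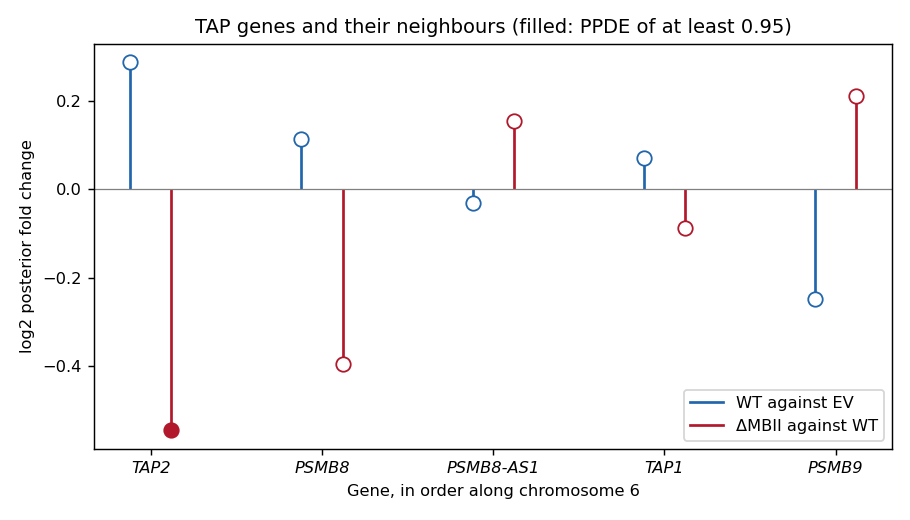
Log2 posterior fold change (y) of TAP2, TAP1 and the genes between and beside them, in chromosomal order (x), in WT against EV (blue) and ΔMBII against WT (red), from the authors' deposited table. The filled point, TAP2 in ΔMBII at -0.55, is called, and the other 9 points are not.

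The table of bound genes comes from a separate fit, whose folds differ from those of the first for the 4 bound members by 0.0661 at the median and 0.113 at most over 28 values. Its calls differed more. B2M, not called in the first, fell in WT against EV there, at -0.46 with a PPDE of 0.998 in the authors' deposited table of bound genes. TAP2 rose in WT against EV in that table, at 0.32 with a PPDE of 0.980. It also fell in ΔMBII against WT in the authors' deposited table of bound genes, at -0.56 with a PPDE of 1.00. TAPBP (-0.53, PPDE 0.227) and NLRC5 (0.13, PPDE 0.0253) were not called for that comparison in the authors' deposited table of bound genes. The background differs as well: 15.8% of 9181 genes were called in WT against EV in that fit (8.44% risen, 7.32% fallen) and 4.87% of 9175 in ΔMBII against WT (2.7% fallen). So for TAP2 the authors' 2 fits both called the ΔMBII difference, whereas the WT against EV calls of TAP2 and B2M rested on the second fit alone. The 2 fits compare the same groups of libraries, so the second call of TAP2 is not independent of the first.

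**Figure D3:**
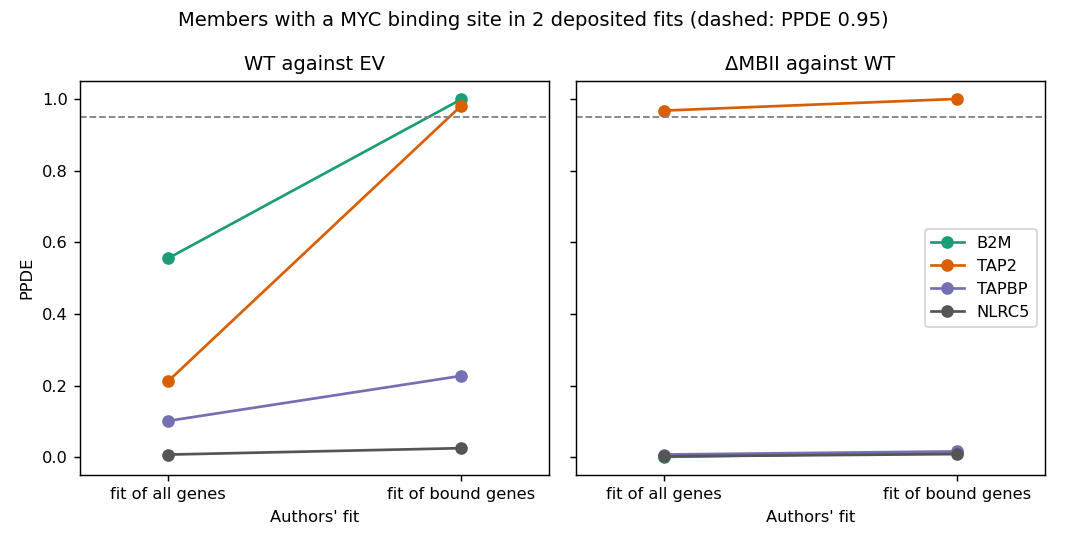
PPDE (y) of the 4 members with a MYC binding site in the authors' fit of all genes and in their fit of bound genes (x), for WT against EV (left) and ΔMBII against WT (right), with 0.95 dashed. In WT against EV, B2M goes from 0.555 to 0.998 and TAP2 from 0.212 to 0.980, and in ΔMBII against WT only TAP2 is above the line, in both fits.

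Reads of class I genes can be shared with near copies and overlapping genes, and how the authors counted such reads and whether strand was used are not given in the sources used here. As a measure, the share of 50-base words of each member's GENCODE 29 transcripts that also occur in transcripts of another gene, on either strand, was counted. It was 31.3% for TAP2, with AL669918.1, an overlapping protein-coding gene model on the same strand. It was 21.6% for HLA-F, led by the opposite-strand pseudogene AL645939.1, and 17.8% for HLA-B, led by AL671883.2, also a pseudogene on the opposite strand. TAP1 shared 9.78%, most of it with PSMB8-AS1, and HLA-C, HLA-E and TAPBP between 4.73% and 5.70%. B2M and NLRC5 shared no such word, but exact words miss copies that differ by a base. On the opposite strand of NLRC5, GENCODE 29 places the processed pseudogene AC023825.1 and the antisense gene AC023825.2. AL669918.1, AL645939.1 and AL671883.2 have no row under these names in the authors' deposited table. Whether reads were counted for them under other names is not known. The values of TAP2, HLA-F and HLA-B are uncertain in this respect, and the effect on their folds was not tested. HLA-F-AS1, which overlaps HLA-F on the opposite strand, had a fold of 0.15 in WT against EV and -0.11 in ΔMBII against WT in the authors' deposited table, on the other side of 0 from HLA-F in both. Class I alleles that differ from the reference can also lose reads, and this was not tested.

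The genes that act with class I were described from 5 lists. Of 16 tested heavy-chain relatives and ligands of the natural killer receptor NKG2D, 3 fell in WT against EV and none rose, with a list median of -0.45. Among all tested genes 2.94% fell in that comparison. MR1, a class I-like chain that pairs with B2M and presents vitamin B metabolites, fell to -1.19 in the authors' deposited table with a PPDE of 1.00, and rose against WT in ΔMBII (0.80) and ΔMBIV (0.50). ULBP2, an NKG2D ligand, fell to -1.24 and rose in ΔMBII to 0.83, and ULBP1 fell to -1.98, in the authors' deposited table. FCGRT, the neonatal Fc receptor, which also pairs with B2M, stood at -1.10 with a PPDE of 0.936, short of a call, in the authors' deposited table.

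Of 21 genes of peptide supply and loading, 1 fell in WT against EV, beside 2.94% of all tested genes, and the list median was -0.11. The fallen gene was ERAP2, an aminopeptidase that trims peptides for class I, at -0.78 with a PPDE of 0.987 in the authors' deposited table. Its sister ERAP1 stood at -0.60 with a PPDE of 0.794 and was not called. The proteasome activator PSME3 fell in ΔMBIV against WT, to -0.46 with a PPDE of 1.00 in the authors' deposited table. The immunoproteasome subunits PSMB8, PSMB9 and PSMB10 and the loading chaperones CALR, CANX and PDIA3 were called in no comparison.

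Of 20 tested genes of interferon signalling 2 fell in WT against EV, JAK1 and STAT2, whose folds were -0.55 and -0.87 in the authors' deposited table. In that list 18 of the 20 lay below 0, with a median of -0.36. Among all tested genes 52.8% lay below 0 in that comparison. IRF1, an interferon-induced activator of class I, stood at -0.18 in the authors' deposited table, and no gene of this list was called in a mutant. None of the 18 promoter factors was called in any comparison, and RFXAP, a subunit of the factor that recruits NLRC5, had the highest PPDE among them, 0.35 in the authors' deposited table, at a fold of 0.49 in WT against EV. Next was RFX5, another subunit of that factor, with 0.0482 at -0.19 in ΔMBII against WT in the authors' deposited table. The 10 chromatin repressors had no call either. Among these HDAC1 in ΔMBII had the highest PPDE, 0.821 at -0.23, and EZH2, the Polycomb methyltransferase, the next, 0.374 in the authors' deposited table, at 0.26 in WT against EV. Over these lists and those of class II and NLR genes together, 9 of 105 tested genes (8.57%) were called in WT against EV, all fallen, beside 4.91% of all tested genes called and 2.94% fallen. In ΔMBII against WT it was 2 of 105, both risen, beside 0.695% of all tested genes risen. In ΔMBIV against WT 1 of 106 rose and 1 fell, beside 0.251% and 0.86% of all tested genes.

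The genes whose 7 folds lay nearest to those of TAP2, by Euclidean distance among 2053 genes with at least 1 call, were SIMC1, GDF11, GPHN, COPRS and IMMP2L, at distances of 0.20 to 0.23. They were chosen for these folds, so the values that follow are a description. GPHN encodes the synaptic scaffold gephyrin and GDF11 a growth factor of the TGF-beta family. All 5 fell in ΔMBII against WT, from -0.38 for SIMC1 to -0.44 for GPHN in the authors' deposited table. SIMC1, GDF11, GPHN and COPRS also rose in WT against EV, by 0.33 to 0.41, whereas IMMP2L at 0.32 did not pass there in the authors' deposited table. GPHN and IMMP2L fell in ΔMB0 as well, to -0.28 and -0.36 in the authors' deposited table, where TAP2 at -0.24 was not called. The deposited list of bound genes holds GPHN, COPRS and IMMP2L.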

How the data were processed

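RNA from 32 libraries was compared in 8 groups of 4 taken from the labels. The files used are 2 deposited tables of comparisons, with 58317 genes and with the 9368 genes that have a MYC binding site. Per the file headers, the authors' values are a log2 posterior fold change and a score from 0 to 1, the PPDE, both out of a Bayesian model fitted to read counts, and genes whose read counts were 0 have none. The submitters' processing notes name GRCh37, DESeq, R 3.3.1, STAR 2.5.2a and edgeR 3.16.5, without roles. Which program gave these values, and how libraries were scaled, are not given in the sources used here.

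No test was run here: a call is a PPDE of at least 0.95 in the authors' fit across all genes. Recounting calls gave the deposited number for 58317 of 58317 genes. Depth per library is unknown. The counting was tested on simulated data. Members and lists were chosen with earlier results of these data known. Every member was named, as were called genes of the related lists or else up to 2 genes with the highest PPDE, and the 5 genes nearest to the member with most calls, leaving out symbols that start with LOC, LINC, or RP, AC or AP and digits. In the text these highest PPDE values are taken over the 7 comparisons. The alternatives tried were PPDE thresholds of 0.90 and 0.99, a fold limit of 1 on the absolute log2 scale, the fit of bound genes, and centring on the median of all tested genes. The share of genes with a fold 0.45 to 0.65 from 0, the shared words and the overlaps were added after the values were seen. Promoters came from RefSeq on GRCh38.p14 and transcripts from GENCODE 29. No coordinate was set beside values on GRCh37. Work was done in Python 3.11.15 with matplotlib 3.10.9.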

Additional observations from a re-analysis of the deposited data

How the results depend on the processing

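At a PPDE of 0.90, HLA-E was called as well in WT against EV, so that 1 member was called there in place of 0. At a PPDE of 0.99, or with an absolute log2 fold of at least 1, the call of TAP2 in ΔMBII against WT ended and the count went from 1 to 0. At 0.99 the genes of the related lists called in ΔMBIV against WT went from 2 to 1 (MR1 was lost), ERAP2 in WT against EV was lost, and all genes called in ΔMBIIIa against WT from 16 to 9. The other counts of called members, of all related genes and of all tested genes stayed within 1.5 times under both PPDE thresholds. In the authors' fit of bound genes, B2M (-0.46) and TAP2 (0.32) became called in WT against EV, and uncalled values near 0 changed sign: TAP2 in ΔMBIIIb (-0.0225), NLRC5 in ΔMBI (0.0288) and NLRC5 in ΔMBII (0.0399). Centring moved folds by at most 0.07 and turned the sign of HLA-B (-0.0401) and TAP2 (-0.0046) in ΔMBIIIb, HLA-C in ΔMBIIIa (0.0115) and TAP1 in ΔMBIV (0.0315), none of them called. No paired analysis was possible because the files give comparisons and no values per library, and for the same reason no library could be left out. Why the 2 fits differ was not tested.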

Other observations

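Of 12 MHC class II genes, which present peptides from outside the cell, 11 had a value in WT against EV. None of the 12 is in the deposited list of bound genes. HLA-DMA, which loads peptides onto class II, fell to -0.93 with a PPDE of 0.992 in the authors' deposited table, and was the only class II gene called in any comparison. Among all tested genes 2.94% fell in WT against EV. CD74, the class II invariant chain, stood at 0.04, and the class II transactivator CIITA, a relative of NLRC5, at 0.26, neither called in the authors' deposited table.

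Among 9 relatives of NLRC5 in the NLR family, 2 fell in WT against EV and none rose, beside 2.94% of all tested genes fallen. NLRP3, an inflammasome sensor, fell to -2.04 and NLRP10 to -2.31 in the authors' deposited table, with PPDE values of 1.00 and 0.999. In ΔMBI against WT, NLRP3 stood at 1.08 with a PPDE of 0.852, short of a call, in the authors' deposited table. NLRC5 itself stayed within 0.23 of 0 in all 7 comparisons of the authors' fit of all genes, and reached 0.32 in ΔMBIV against WT, not called, in their fit of bound genes. NOD1, a sensor of bacterial cell walls, was at -0.17 in WT against EV and not called in the authors' deposited table.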
